A study of Mus musculus with 10 samples.

Results

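Sterol and fatty acid synthesis in early B cells was described here through 29 genes, which were taken by name from the expression files of mouse bone marrow cells carrying different alleles of *Pax5*, the transcription factor that commits lymphoid progenitors to the B lineage. The genes were 16 enzymes of sterol synthesis, 4 controllers of the pathway, 8 enzymes of fatty acid synthesis and desaturation and 1 sterol carrier, out of 25579 genes in the files. All 29 were measured, and all had at least 1 TPM (reads per transcript length, scaled to the same total in each library) in each of the 8 RNA-seq libraries. Their levels ran from 2.51 to 269.6 TPM, and each rested on 149 to 24177 reads per library.

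The 8 libraries came from 4 genotypes with 2 libraries each, all on the C57BL/6 background and made from poly(A) RNA of cells sorted from bone marrow. Pro-B cells were *Pax5*+/+, *Pax5*+/- with 1 null allele, or *Pax5*R31Q/- with the paired domain substitution R31Q on 1 allele and a null allele on the other. The *Pax5*-/- cells, labelled as progenitor cells and not as pro-B cells, came from *Pax5* fl/fl Vav-Cre mice, in which Cre is expressed in blood cells from their progenitors onward, so that *Pax5* was removed before the pro-B stage. Age and sex were not used here, and the labels do not say whether the 2 libraries of a genotype came from separate mice, so p-values measure the spread between these libraries. *Pax5* binding was available as 1 peak list from *Pax5*+/+ *Rag2*-/- pro-B cells and 1 from *Pax5*R31Q/- pro-B cells, with no replicates. Both came from short-term cultures and were made with an antibody to the paired domain, and only peak positions were used.

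Reads assigned to genes, recovered from the smallest steps of the values, summed to 21625407 to 34488454 per library, lowest in *Pax5*-/- replicate 1. *Pax5* itself had 418 and 444 TPM in the *Pax5*+/+ libraries, 272 and 287 in *Pax5*+/-, 306 and 293 in *Pax5*R31Q/- and 1242 and 1409 in *Pax5*-/-. These values cover the whole gene and do not resolve the deleted part, so they check nothing about the deletion. Early B cell genes were present in all libraries, among them *Vpreb1* and *Igll1*, which encode the surrogate light chain, at 1042 TPM or more, while the T cell genes *Cd3e* and *Cd3g* and the NK cell gene *Ncr1* stayed at or below 0.585 TPM. Other genes of the same T and NK cell list were detected in every library, *Tcf7* at 32.8 to 101 TPM, *Klrb1c* at 6.17 to 15.7 TPM, *Nkg7* at 4.07 to 56.2 TPM and *Cd4* at 0.833 to 5.87 TPM. In bulk samples, fewer cells of a type and less RNA per cell cannot be told apart.

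Cholesterol is built from acetyl-CoA through mevalonate and squalene, and fatty acids are built from the same acetyl-CoA through malonyl-CoA. Both routes are switched on by the SREBP proteins, membrane-bound transcription factors encoded by *Srebf1* and *Srebf2*, which the escort protein SCAP carries to the Golgi for cleavage when sterols are scarce and which INSIG proteins hold back in the endoplasmic reticulum when sterols are plentiful. Dividing lymphocytes make membrane lipids through these routes, and promoters of the pathway often hold SREBP sites next to CCAAT boxes, the site of the factor NF-Y.

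Promoter windows are shown for 5 genes that the results turn on, 4 with a higher level in *Pax5*-/- cells (*Hmgcs1*, *Mvd*, *Fasn* and *Fads2*) and 1 with a lower level (*Elovl6*). Each window runs from 250 bases before to 50 bases after a RefSeq transcription start in GRCm38.p6 and is written 5′ to 3′ on the gene's strand. Capitals mark CCAAT read on either strand (ATTGG on the reverse) and the SREBP site letters TCACNCCAC. *Hmgcs1* lies at chr13:119690101-119690400 on the plus strand, *Mvd* at chr8:122443373-122443672 on the minus strand, *Fasn* at chr11:120824498-120824797 on the minus strand, *Fads2* at chr19:10101454-10101753 on the minus strand and *Elovl6* at chr3:129532136-129532435 on the plus strand.
Hmgcs1: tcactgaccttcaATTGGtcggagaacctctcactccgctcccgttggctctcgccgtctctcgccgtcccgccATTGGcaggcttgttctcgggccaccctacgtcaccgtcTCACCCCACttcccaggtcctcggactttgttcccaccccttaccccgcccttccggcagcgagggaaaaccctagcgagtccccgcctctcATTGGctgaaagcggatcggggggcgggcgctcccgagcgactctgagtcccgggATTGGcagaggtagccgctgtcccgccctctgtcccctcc
Mvd: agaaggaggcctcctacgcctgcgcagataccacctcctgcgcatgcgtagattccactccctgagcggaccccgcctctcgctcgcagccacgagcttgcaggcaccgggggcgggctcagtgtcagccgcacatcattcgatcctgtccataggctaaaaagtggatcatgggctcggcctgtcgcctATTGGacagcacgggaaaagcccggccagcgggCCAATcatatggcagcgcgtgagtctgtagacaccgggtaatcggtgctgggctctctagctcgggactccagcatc
Fasn: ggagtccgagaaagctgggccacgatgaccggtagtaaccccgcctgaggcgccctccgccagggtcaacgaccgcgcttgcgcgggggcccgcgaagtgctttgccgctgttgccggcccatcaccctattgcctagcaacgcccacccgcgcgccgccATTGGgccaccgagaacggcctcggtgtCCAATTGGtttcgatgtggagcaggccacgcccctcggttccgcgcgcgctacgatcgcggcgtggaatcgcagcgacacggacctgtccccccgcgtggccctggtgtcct
Fads2: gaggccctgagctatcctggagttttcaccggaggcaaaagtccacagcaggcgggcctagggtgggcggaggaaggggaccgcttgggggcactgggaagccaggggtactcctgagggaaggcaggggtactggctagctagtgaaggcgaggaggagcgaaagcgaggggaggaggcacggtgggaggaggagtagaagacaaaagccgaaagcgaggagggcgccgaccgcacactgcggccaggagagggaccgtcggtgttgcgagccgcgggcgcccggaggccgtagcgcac
Elovl6: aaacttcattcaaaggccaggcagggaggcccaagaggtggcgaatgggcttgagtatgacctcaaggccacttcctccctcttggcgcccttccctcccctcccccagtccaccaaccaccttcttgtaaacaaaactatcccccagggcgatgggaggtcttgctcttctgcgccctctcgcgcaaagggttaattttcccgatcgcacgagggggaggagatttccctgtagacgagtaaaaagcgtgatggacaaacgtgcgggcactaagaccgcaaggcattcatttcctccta

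The *Hmgcs1* window held 4 CCAAT matches and 1 match to TCACNCCAC, the *Mvd* window held 2 CCAAT matches and the *Fasn* window held 3, of which 2 share bases. The *Fads2* and *Elovl6* windows held neither. Promoter windows were matched for 22 of the 29 genes, as 28 windows. CCAAT was found in 18 of the 28 windows (64.3%), against 37.41% of the 32851 mouse promoter windows of the same length. TCACNCCAC stood in 1 of the 28 windows, that of *Hmgcs1*, against 1.24% of all windows, and the E-box CACGTG, searched as a second SREBP letter pattern, stood in 6 (21.4%), against 7.15%. A match describes letters and not a bound site. Windows for *Fdps*, *Fdft1*, *Sqle*, *Scd1*, *Scd2*, *Fads1* and *Stard4* were not matched.

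*Pax5* peaks lay at the starts of nearly all of these genes in both peak lists. Within 1 kb of a transcription start, 27 of the 29 genes (93.1%) had a peak in the *Pax5*+/+ *Rag2*-/- list, compared with 68.2% of the 12893 tested genes with an annotated start and 78.4% of the 9874 of these with a mean above 5 TPM. In the *Pax5*R31Q/- list, 28 genes (96.6%) had such a peak, compared with 73.2% and 84.0%. At 26 of the 27 genes, a start-site peak of the *Pax5*+/+ list overlapped a peak of the *Pax5*R31Q/- list by at least 1 bp. The 1 gene without such an overlap was 3.7% of the 27, compared with 4.0% of all tested genes with a start-site peak and 3.2% of those above 5 TPM. With an overlap of at least 50% of both peaks required, the share was again 3.7% of the 27 genes, but 15.8% of all tested genes and 14.8% of those above 5 TPM. The lists held 41983 and 18821 peaks. Because only the positions of peaks were used, the amount of binding was not compared.

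*Scd1*, which encodes stearoyl-CoA desaturase, the enzyme that puts the first double bond into saturated fatty acids, was the exception among the 27. Its *Pax5*+/+ peak was a 200-bp interval at chr19:44407410-44407609, in an exon, with its middle 200 bp inside the gene, and it met no peak of the *Pax5*R31Q/- list. The *Pax5*R31Q/- list held a separate 303-bp peak at chr19:44407797-44408099, with its middle 239 bp upstream of the start. *Mvd*, the decarboxylase that closes the mevalonate part of the pathway, and *Nsdhl*, a dehydrogenase that removes methyl groups from sterols, had a start-site peak in the *Pax5*R31Q/- list only, of 486 bp at chr8:122443354-122443839 and of 491 bp at chrX:72918234-72918724. At *Elovl6*, which encodes the elongase that extends palmitate to stearate, a 1292-bp *Pax5*+/+ peak at chr3:129532837-129534128 in an intron overlapped a 982-bp *Pax5*R31Q/- peak at chr3:129533417-129534398, which began farther into the gene, outside the 1 kb window.

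**Figure D1:**
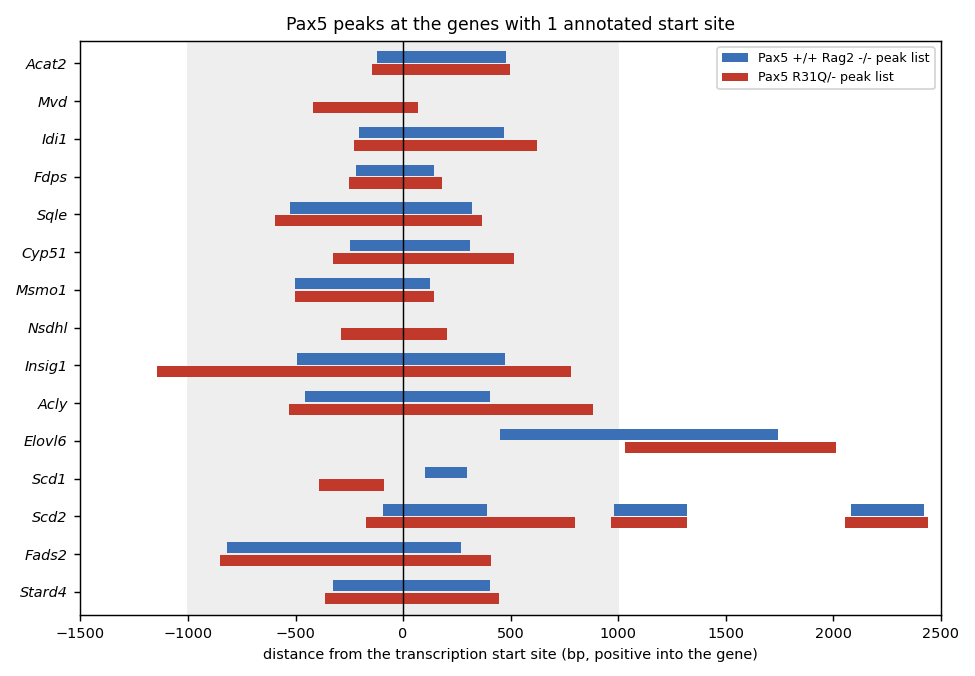
*Pax5* peaks around the start site of the 15 genes with a single annotated transcription start, drawn to scale as distance from that start in bp (positive into the gene), with *Pax5*+/+ *Rag2*-/- peaks in blue, *Pax5*R31Q/- peaks in red and the window of 1 kb on each side shaded. At *Scd1* the blue and red intervals do not meet, at *Mvd* and *Nsdhl* only a red interval is present, and at *Elovl6* the red peak starts farther inside the gene.

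Loss of 1 *Pax5* allele left none of the 29 genes past the threshold of an adjusted p of 0.05 from limma, computed on log2(TPM + 1) and adjusted over all 13436 genes tested. With 2 libraries against 2, an exact two-sided permutation test of a single gene cannot go below 0.333, so the spread was estimated from all 8 libraries together. In *Pax5*+/- cells 0 genes were called lower, where 0.0223% of all genes tested were, and 0 were called higher, where 0% were. At an unadjusted p under 0.05, limma gave 5 of the 29, 2 lower and 3 higher, and 814 of the 13436 genes, and limma-voom on the recovered reads called 0. The 29 fold changes ran from -0.74 to 0.45 on the log2 scale with adjusted p from 0.3 to 1, and the median 95% interval, unadjusted, reached 0.41 to each side.

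*Scd1* had 10.2 and 8.47 TPM in *Pax5*+/- against 14.8 and 17.8 TPM in *Pax5*+/+. Both heterozygous libraries lay below both wild-type libraries, but the log2 fold change of -0.74 ± 0.26 (SE) had an adjusted p of 0.665 from limma. *Fasn*, the fatty acid synthase that assembles palmitate, had 81.9 and 81.1 TPM against 56.8 and 62.3 TPM, again without overlap and with an adjusted p of 0.3 from limma. In 16 of the 29 genes both *Pax5*+/- libraries lay above both *Pax5*+/+ libraries, which held for 21.1% of all genes tested. The median log2 fold change of the 29 genes was 0.16 and that of all genes 0.02. The summed level of 10 proliferation genes was 2431 and 1487 TPM in the *Pax5*+/+ libraries and 2350 and 2611 TPM in *Pax5*+/-, and its part in these differences was not tested.

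In *Pax5*R31Q/- cells, 3 genes were lower than in *Pax5*+/+ and none was higher. The 3 were *Scd1*, *Elovl6* and *Srebf1*, and the first 2 act next to each other on the products of fatty acid synthase. None of the 16 sterol synthesis enzymes passed the test, with log2 fold changes from -0.37 to 0.64. Of all genes tested, 2.55% were called lower and 1.62% higher. At an unadjusted p under 0.05, 5 of the 29 genes were lower and 3 higher, and 2521 of the 13436 genes passed in either direction. Limma-voom also called 0 higher.

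*Scd1* had 2.51 and 3.42 TPM in the *Pax5*R31Q/- libraries, below every other genotype except *Pax5*-/-, whose 3.07 and 5.63 TPM overlapped with them. Against *Pax5*+/+ the mean was 0.182 of the wild-type mean, with a log2 fold change of -2.13 ± 0.26 (SE) and an adjusted p of 0.00579 from limma. The call was lost without *Pax5*+/+ replicate 2 (adjusted p = 0.0663 from limma), without *Pax5*R31Q/- replicate 1 (adjusted p = 0.0777) and without *Pax5*R31Q/- replicate 2 (adjusted p = 0.0531), while the log2 fold change stayed between -1.96 and -2.30. On the log2(TPM + 1) scale, *Scd1* was the only one of the 29 past a stricter threshold that the study used for its gene lists, an adjusted p under 0.05 with a change over 3-fold and a mean above 5 TPM, which 0.558% of all genes passed in this direction.

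*Elovl6* had 13.8 and 16.1 TPM in *Pax5*R31Q/- against 45.2 and 44.1 TPM in *Pax5*+/+. The groups were far apart relative to their spread, at 0.335 of the wild-type mean, with a log2 fold change of -1.52 ± 0.17 (SE) and an adjusted p of 0.00433 from limma. Without *Pax5*R31Q/- replicate 1 the adjusted p from limma was 0.0667. *Elovl6* lay just short of the 3-fold threshold, with a log2 fold change of -1.60 by limma-voom and of -1.63 without *Pax5*R31Q/- replicate 2, both over 3-fold. *Elovl6* overlaps the gene model Gm35986 on the other strand, and whether reads were counted by strand is not stated.

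Among the controllers, *Srebf1* had 59.7 and 62.5 TPM in *Pax5*R31Q/- against 82.2 and 99.6 TPM in *Pax5*+/+, a log2 fold change of -0.56 ± 0.12 (SE) with an adjusted p of 0.0474 from limma. This call lay at the threshold: 6 of 8 other settings lost it, with adjusted p from 0.0506 to 0.0837 by limma, and so did leaving out *Pax5*+/+ replicate 2 (0.166), either *Pax5*+/- replicate (0.114) or *Pax5*R31Q/- replicate 1 (0.288) or 2 (0.25). *Srebf1* shares bases with *Rai1* on the other strand. *Scap*, which encodes the SREBP escort, had 135 and 131 TPM against 186 and 268 TPM and missed the threshold by limma (log2 fold change -0.74, adjusted p = 0.0517), but was called by limma-voom on recovered reads (adjusted p = 0.0273). *Srebf2* and *Insig1*, which encode the sterol-directed SREBP and the protein that holds it back, had log2 fold changes of -0.16 and 0.10 and were not called.

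The other 6 fatty acid enzymes were not called in *Pax5*R31Q/- cells. *Scd2*, the paralog of *Scd1*, had 65.1 and 72.2 TPM against 103 and 77.7 TPM in *Pax5*+/+, and the ratio of *Scd2* to *Scd1* in TPM was 25.9 and 21.1 against 6.98 and 4.37. Reads that map to both paralogs could shift such a ratio; the values rest on uniquely mapped reads. *Idi1*, the isopentenyl diphosphate isomerase, and *Stard4*, which carries cholesterol between membranes, had the largest positive log2 fold changes of the 29, 0.64 and 0.63, with adjusted p of 0.127 and 0.201 from limma. The median of the 29 genes was 0.07 and that of all genes 0.04.

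*Pax5*R31Q/- and *Pax5*+/- cells, which both carry 1 null allele, were also compared directly. *Elovl6* was lower in *Pax5*R31Q/- than in *Pax5*+/-, where it had 36.6 and 41.5 TPM, with a log2 fold change of -1.33 ± 0.17 (SE) and an adjusted p of 0.0259 from limma. *Elovl6* was the only gene of the 29 called lower, against 0.35% of all genes, and none was called higher, against 0.268%, and limma-voom also called 0 higher. At an unadjusted p under 0.05, 5 were lower and 0 higher, and 1181 of the 13436 genes passed in either direction. *Scd1* gave a log2 fold change of -1.39 with an adjusted p of 0.0836 from limma and 0.0245 from limma-voom. The *Elovl6* call did not survive leaving out any 1 of the 6 *Pax5*+/+, *Pax5*+/- and *Pax5*R31Q/- libraries (adjusted p from 0.0711 to 0.28 by limma).

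**Figure D2:**
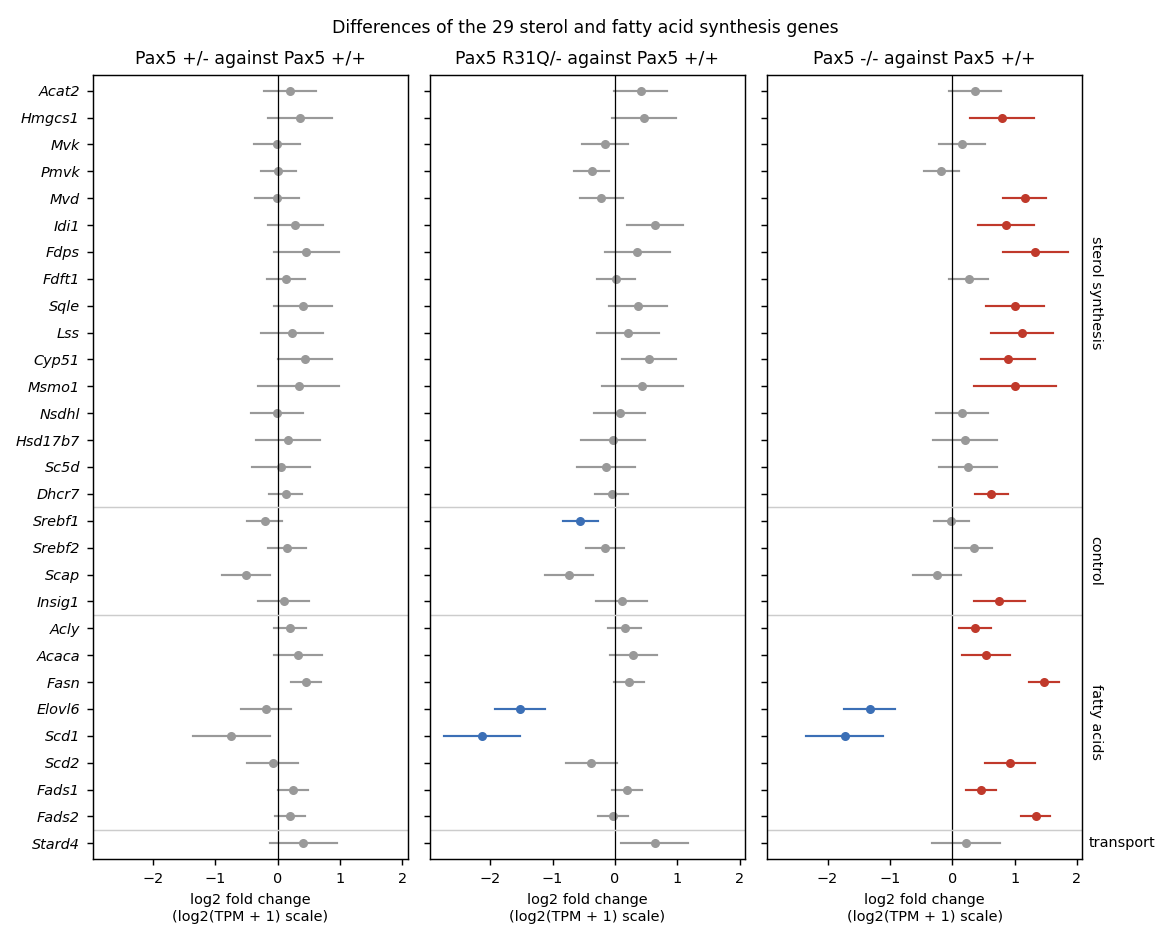
Log2 fold change against *Pax5*+/+ (horizontal, on the log2(TPM + 1) scale) of the 29 genes, grouped by role, in *Pax5*+/- (left), *Pax5*R31Q/- (middle) and *Pax5*-/- (right); bars are 95% intervals from limma, red marks genes called higher and blue genes called lower at an adjusted p of 0.05. No gene is coloured on the left, 3 are blue in the middle, and on the right 16 are red while *Elovl6* and *Scd1* are blue.

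In *Pax5*-/- cells, against *Pax5*+/+, 16 of the 29 genes were called higher, namely 9 of 16 sterol synthesis enzymes, 6 of 8 fatty acid enzymes and the controller *Insig1*. *Scd1* and *Elovl6* were called lower. With only these 2 genotypes in the fit, 9 were called higher, as were 1250 of the 13238 genes tested there. In the fit of all 8 libraries, 16.2% of all genes tested were called higher and 19.7% lower. The median log2 fold change was 0.46 for the 29 genes and -0.11 for all genes. Both *Pax5*-/- libraries lay above both *Pax5*+/+ libraries for 19 of the 29 genes, and for 27.2% of all genes.

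The mevalonate steps came first in the pathway. *Hmgcs1*, the synthase that makes HMG-CoA, had 48.6 and 72.4 TPM in *Pax5*-/- against 39.9 and 28.2 TPM in *Pax5*+/+, and *Idi1* had 8.80 and 11.2 TPM against 5.26 and 4.75 TPM. *Mvd* had 26.7 and 33.0 TPM against 12.4 and 13.1 TPM. The *Pax5*-/- libraries were the highest of the 8 for *Mvd* and *Hmgcs1*, whereas for *Idi1* the *Pax5*R31Q/- libraries, at 7.46 and 9.30 TPM, overlapped with them. Log2 fold changes were 0.80 for *Hmgcs1*, 0.86 for *Idi1* and 1.16 ± 0.15 (SE) for *Mvd*, whose adjusted p was 0.000964 from limma. *Mvd* shares bases with the gene model Gm51557 on the other strand.

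Farnesyl diphosphate synthase, encoded by *Fdps*, had 101 and 84.3 TPM in *Pax5*-/- against 46.3 and 27.8 TPM in *Pax5*+/+. Its log2 fold change was 1.33 ± 0.22 (SE) with an adjusted p of 0.00315 from limma, and 0.98 without *Pax5*+/+ replicate 2. The wild-type pair was uneven, but neither library reached the *Pax5*-/- values. *Fdps* contains the small gene model Gm22935 on the same strand, so part of its reads could be assigned otherwise.

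*Sqle*, the squalene epoxidase, had 45.3 and 64.4 TPM against 29.5 and 23.7 TPM, and *Lss*, which closes the ring to lanosterol, had 8.62 and 12.7 TPM against 4.83 and 3.77 TPM. The means were 2.06 times the wild-type mean for *Sqle* and 2.48 times for *Lss*, with adjusted p of 0.00655 and 0.00534 from limma. *Lss* shares bases with 4930483K19Rik on the other strand.

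*Cyp51*, the lanosterol demethylase, had 30.3 and 43.9 TPM against 20.5 and 18.0 TPM, and *Msmo1*, the methylsterol oxidase, had 23.9 and 48.6 TPM against 16.3 and 16.5 TPM. *Dhcr7*, a reductase of the last steps to cholesterol, had 57.5 and 61.6 TPM against 38.4 and 38.1 TPM. For *Cyp51* and *Msmo1* the 2 *Pax5*-/- libraries were unequal, with replicate 2 the higher, and replicate 1 lay near the *Pax5*R31Q/- values of 26.8 and 30.3 TPM for *Cyp51* and of 22.2 and 23.2 TPM for *Msmo1*. Log2 fold changes were 0.89 for *Cyp51*, 1.01 for *Msmo1* and 0.62 for *Dhcr7*, with adjusted p of 0.00835, 0.0266 and 0.00458 from limma.

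The other 7 sterol enzymes were not called in *Pax5*-/-. *Acat2*, the thiolase that joins acetyl-CoA units, *Mvk* and *Pmvk*, the mevalonate kinases, *Fdft1*, the squalene synthase, and *Nsdhl*, *Hsd17b7* and *Sc5d*, which remodel the sterol ring, had log2 fold changes from -0.17 for *Pmvk* to 0.37 for *Acat2*. *Fdft1* was called by limma-voom (log2 fold change 0.37, adjusted p = 0.0408) and not by limma on the TPM as deposited. *Fdft1* shares bases with *Ctsb* on the other strand.

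Of the 4 controllers, 1 was called higher in *Pax5*-/- cells. *Insig1* had 33.2 and 44.6 TPM in *Pax5*-/- against 20.5 and 24.4 TPM in *Pax5*+/+, a log2 fold change of 0.76 ± 0.18 (SE) with an adjusted p of 0.0133 from limma. *Srebf1*, *Srebf2*, *Scap* and the carrier gene *Stard4* were not called, and together with the 7 enzymes above they made 11 genes with log2 fold changes from -0.24 to 0.37. *Srebf2* had 221 and 220.0 TPM against 155 and 196 TPM, above both wild-type libraries, and was called by limma-voom (adjusted p = 0.031).

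Along the fatty acid route, *Acly*, which supplies acetyl-CoA in the cytosol, had 266 and 269.6 TPM in *Pax5*-/- against 225 and 193 TPM in *Pax5*+/+, and *Acaca*, the carboxylase that makes malonyl-CoA, had 19.5 and 19.4 TPM against 14.4 and 11.9 TPM. These 2 differences were small, at 1.28 and 1.48 of the wild-type means, and both calls were lost on removal of any library other than *Pax5*+/+ replicate 1 (adjusted p from 0.0522 to 0.15 by limma). *Fasn* had 163 and 172 TPM against 56.8 and 62.3 TPM, and no other genotype exceeded 81.9 TPM. Its log2 fold change was 1.48 ± 0.10 (SE), the largest increase among the 29, with an adjusted p of 5.45e-05 from limma that stayed at or below 0.00178 under every setting tried. *Acaca* shares bases with *Tada2a* on the other strand.

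The desaturases divided. *Fads2*, which starts the desaturation of polyunsaturated fatty acids, had 219 and 224 TPM in *Pax5*-/- against 88.8 and 85.2 TPM in *Pax5*+/+, and *Fads1*, which acts later on the same fatty acids, had 78.3 and 80.1 TPM against 55.8 and 59.0 TPM. *Scd2* had 150 and 194 TPM, against at most 103 TPM in any other library. Log2 fold changes were 1.34 ± 0.10 for *Fads2*, 0.46 ± 0.10 for *Fads1* and 0.92 ± 0.17 for *Scd2* (SE), with adjusted p of 7.96e-05, 0.0114 and 0.00528 from limma.

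*Scd1*, by contrast, had 3.07 and 5.63 TPM in *Pax5*-/- against 14.8 and 17.8 TPM in *Pax5*+/+, a log2 fold change of -1.73 ± 0.26 (SE) with an adjusted p of 0.00197 from limma. *Elovl6* had 14.7 and 20.2 TPM against 45.2 and 44.1 TPM, a log2 fold change of -1.32 ± 0.17 (SE) with an adjusted p of 0.00101. Both calls held under every setting and every removal of a library, with adjusted p up to 0.0202 for *Scd1* and 0.0107 for *Elovl6* by limma. *Scd1* was again the only one of the 29 below the study's threshold of 3-fold, which 3.82% of all genes passed in this direction. Without *Pax5*-/- replicate 1 its log2 fold change was -1.38, short of 3-fold. The ratio of *Scd2* to *Scd1* in TPM was 48.9 and 34.5 in the *Pax5*-/- libraries. These values and those of the *Pax5*R31Q/- comparison use the same *Pax5*+/+ libraries.

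**Figure D3:**
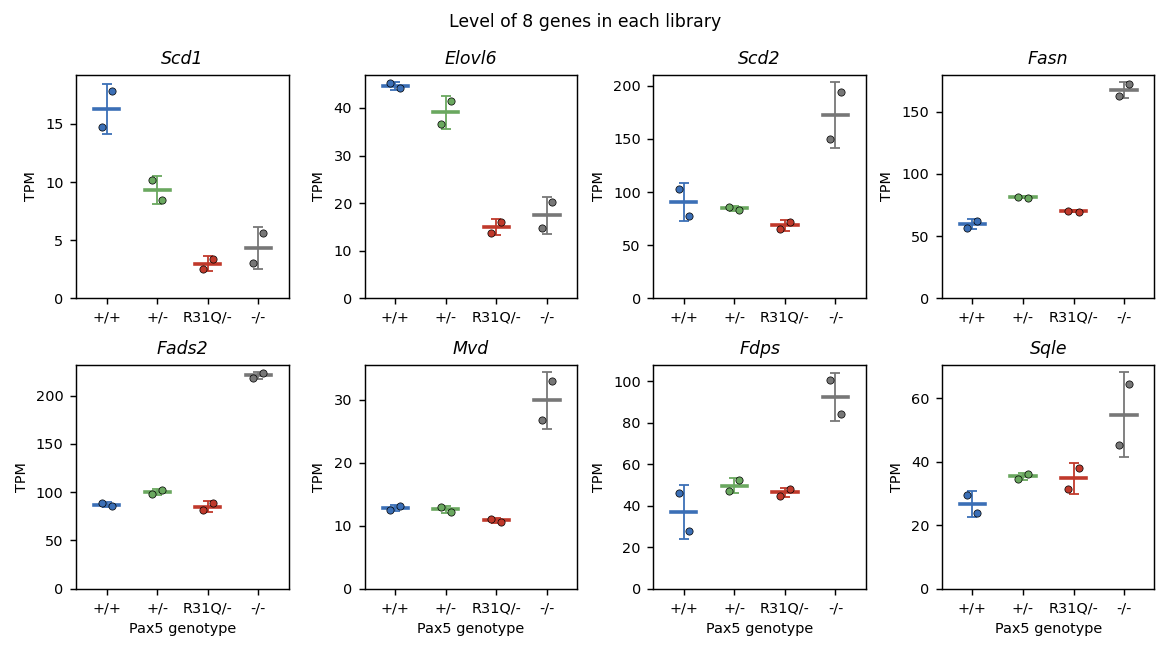
Level in TPM (vertical, linear from 0) of 8 of the genes in each of the 8 libraries, by *Pax5* genotype; points are libraries, horizontal lines are means and error bars are SD (n = 2). *Scd1* and *Elovl6* are low in both *Pax5*R31Q/- and *Pax5*-/-, and the other 6 genes are highest in both *Pax5*-/- libraries.

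Leaving out a single library lowered the count of genes called higher in *Pax5*-/- from 16 to between 11 and 15. Without *Pax5*+/+ replicate 2 the count was 11, and *Acaca*, *Acly*, *Cyp51*, *Hmgcs1*, *Idi1* and *Msmo1* were no longer called (adjusted p from 0.0526 to 0.15 by limma). *Insig1* lost its call without *Pax5*+/+ replicate 1 (adjusted p = 0.0726 by limma), as did *Msmo1* (0.106). *Hmgcs1* and *Msmo1* were also lost without either *Pax5*R31Q/- replicate (adjusted p from 0.0519 to 0.0563 by limma), and *Hmgcs1* without *Pax5*-/- replicate 2 (0.0827). Without *Pax5*-/- replicate 1 the count was 15, and without replicate 2 it was 13.

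Other cell features also differed between *Pax5*-/- and the remaining libraries. All 10 proliferation genes were lower in *Pax5*-/- than in *Pax5*+/+ (median log2 fold change -2.14), and their summed level was 451 and 444 TPM against 1487 TPM or more in every other library. Of 9 myeloid genes, 3 were higher, but the summed level was 2219 TPM in replicate 1 and 458 TPM in replicate 2, against 416 to 1566 TPM elsewhere, and *Mpo*, the myeloperoxidase gene, had 132 and 16.6 TPM. Of 9 T and NK cell genes, 6 were tested, with 3 higher and 1 lower, and their sum was 171 and 131 TPM against 59.4 to 77.1 TPM elsewhere. Of 14 early B cell genes, 9 were lower and 3 higher, with a sum of 9853 and 9365 TPM in *Pax5*-/-. The pre-B list had 3 of 4 genes lower and 1 higher, and the erythroid list had 2 of 4 lower. The 16 sterol enzymes summed to 518 TPM in *Pax5*-/- replicate 1 and 628 TPM in replicate 2, against 333 to 421 TPM elsewhere. The part of the proliferation, myeloid, T and NK, erythroid and B cell differences in these results was not tested.

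**Figure D4:**
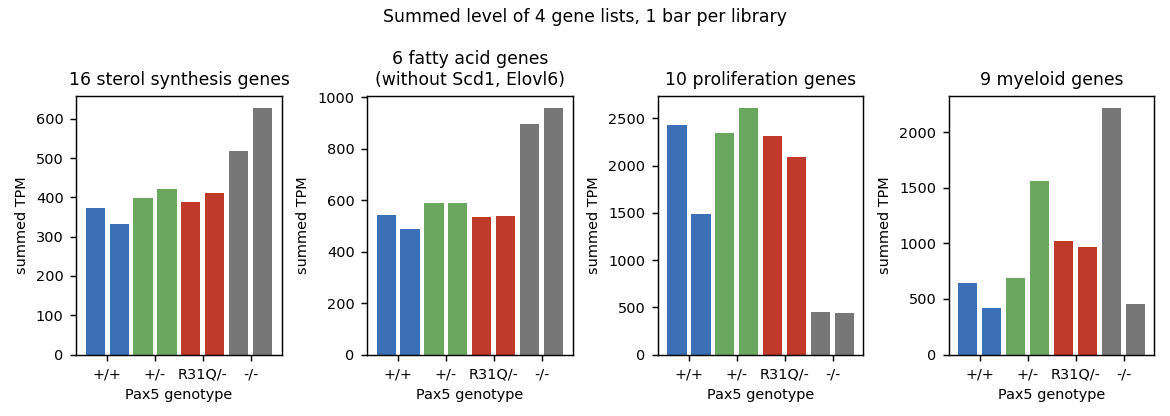
Summed level in TPM (vertical, from 0) of the 16 sterol synthesis genes, the 6 fatty acid genes other than *Scd1* and *Elovl6*, 10 proliferation genes and 9 myeloid genes, with 1 bar per library coloured by *Pax5* genotype. Both lipid sums are highest in the 2 *Pax5*-/- libraries, the proliferation sum is lowest there, and the myeloid sum is high in only 1 of them.

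*Pax5*-/- and *Pax5*R31Q/- cells were also compared directly, although the former were labelled as progenitor cells and the latter as pro-B cells. All 10 proliferation genes were lower in *Pax5*-/-, and of 14 early B cell genes 9 were lower and 2 higher. The part of these differences in this comparison was not tested. Of the 29 genes, 11 were higher in *Pax5*-/- and 0 were lower by limma, with 14.7% and 19.9% of all genes called in these directions, and limma-voom also called 0 lower. At an unadjusted p under 0.05, 0 were lower and 13 higher, and 6376 of the 13436 genes passed in either direction. The 11 were *Mvd*, *Fdps*, *Sqle*, *Lss* and *Dhcr7* among sterol enzymes, *Srebf1*, *Srebf2* and *Insig1* among controllers, and *Fasn*, *Scd2* and *Fads2* among fatty acid enzymes. *Mvd* (log2 fold change 1.38), *Fads2* (1.37), *Scd2* (1.30) and *Fasn* (1.25) differed most, with adjusted p from 0.000107 to 0.0014 by limma. *Scd1* had a log2 fold change of 0.40 with a 95% interval from -0.21 to 1.01, and was not called. Without *Pax5*R31Q/- replicate 1 or replicate 2 the count fell to 5, and *Fdps*, *Insig1*, *Lss*, *Sqle*, *Srebf1* and *Srebf2* were no longer called (adjusted p from 0.0641 to 0.228 by limma). *Fdps* (adjusted p = 0.0789) and *Srebf2* (0.0646) were also lost without *Pax5*-/- replicate 1, *Insig1* without *Pax5*-/- replicate 2 (0.0606) or either *Pax5*+/- replicate (0.0515 and 0.0518), and *Sqle* on removal of any library other than *Pax5*-/- replicate 1. Rescaling the libraries moved the median log2 fold change of all genes in this comparison from -0.13 to -0.01 and raised the count to 18 or 19. The count over all 13436 genes rose as well, from 1978 called higher to 2609 or 2697.

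Around the 29 genes, 35 further genes of the same pathways were counted, of which 32 were tested. None changed in *Pax5*+/- by limma at an adjusted p of 0.05. In *Pax5*R31Q/-, 2 were lower and none higher, where 2.55% and 1.62% of all genes were. *Gpam*, which starts glycerolipid synthesis, had 134 and 114 TPM against 243 and 220 TPM in *Pax5*+/+ (log2 fold change -0.90, adjusted p = 0.00723 from limma), and *Npc2*, which carries cholesterol out of lysosomes, had 102 and 111 TPM against 158 and 149 TPM (-0.52, adjusted p = 0.044).

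In *Pax5*-/-, 9 of the 32 were higher and 5 lower, where 16.2% and 19.7% of all genes were. *Slc25a1*, the carrier that exports mitochondrial citrate for acetyl-CoA production, had 892 and 774 TPM against 164 and 221 TPM in *Pax5*+/+. Its log2 fold change was 2.12, with an adjusted p of 7.91e-05 from limma. *Gpam* had 13.5 and 13.4 TPM (log2 fold change -4.01, adjusted p = 1.53e-06 from limma), and *Mylip*, which encodes a ubiquitin ligase, had 14.5 and 19.0 TPM against 90.6 and 78.2 TPM (-2.28, adjusted p = 9.36e-05). The other 3 lower genes, named after their values were seen, were *Lbr*, *Nr1h2* and *Abca1*. *Lbr*, a sterol reductase of the steps after lanosterol, had 193 and 221 TPM against 420.2 and 302 TPM (-0.78, adjusted p = 0.00852 from limma), opposite to the 9 sterol enzymes called higher. In *Gpam* the *Pax5*R31Q/- libraries lay between those of *Pax5*+/- and *Pax5*-/-, whereas *Slc25a1* had 246 and 237 TPM in *Pax5*R31Q/- and was not called there. *Npc2*, lower in *Pax5*R31Q/-, was higher in *Pax5*-/-, at 245 and 217 TPM (0.58, adjusted p = 0.00553 from limma).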

How the data were processed

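The authors aligned RNA-seq reads with STAR (2.4.2) and deposited 1 table of TPM per library. ChIP-seq reads were aligned with Bowtie2 (2.3.5.1) to mm10 and peaks were called with MACS. Values of the peaks other than their positions were not used. SAMtools (1.9) and Picard (2.18.27) are also named in the submitters' processing notes. The authors tested counts with DESeq2, but the deposited values are TPM, so limma (3.58.1, R 4.3.3) was fitted on log2(TPM + 1) over all 8 libraries by genotype, with the trend option, for the 13436 of 25579 genes that reached 1 TPM in some library, and Benjamini-Hochberg adjustment. Fold changes on this scale understate those of low genes. Whole reads were recovered from TPM steps for 18206 of 18206 genes (tolerance 0.0001 reads) and used in limma-voom as an alternative. The limma fit on log2(TPM + 1) was tested on simulated data with 200 changed genes, and limma-voom was not. The recovery was checked by searching 500 genes again after their values had been moved slightly, and 0 gave whole reads.

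The 29 genes and all lists were chosen with earlier results of these data known. Genes called in any comparison against *Pax5*+/+ are given per library, and from the wider lists the 2 called genes that moved farthest up and the 2 that moved farthest down, of which 1 is not reported here. The count at 3-fold and 5 TPM includes immunoglobulin genes. Annotation was RefSeq GRCm38.p6, the same assembly as mm10, with peaks counted within 1 kb of a transcription start. Of the 29 genes, 13 overlap another gene model, 8 of them on the other strand; whether counting used strand is not given in the sources used here. *Hbb-bt* and *Igkc* were listed as markers and not matched.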

Additional observations from a re-analysis of the deposited data

How the results depend on the processing

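No call for any of the 29 genes changed direction under any alternative. For *Pax5*-/- against *Pax5*+/+, the count of genes called higher was 9 when only the 2 genotypes compared were fitted and 14 to 19 under the other settings that kept all libraries. Over all genes, it was 1250 of 13238 with only the 2 genotypes. Under the other settings it was 1717 to 2751, with 10692 to 19796 genes tested. For *Pax5*R31Q/- against *Pax5*+/-, the count called lower was 0 without a filter on low TPM, 2 with only the 2 genotypes compared and 2 with limma-voom. Over all genes, these settings called 19 of 19796, 233 of 12757 and 109 of 13370 lower. For *Pax5*-/- against *Pax5*R31Q/-, the count called higher was 18 with median-ratio scaling, 19 with quantile normalization and 17 with limma-voom. Over all genes, these settings called 2609 of 13436, 2697 of 13436 and 2653 of 13370 higher. Leaving out each library in turn gave 0 to 4 genes lower and 0 to 2 higher in *Pax5*R31Q/- against *Pax5*+/+ (none without *Pax5*R31Q/- replicate 1), 0 to 2 lower in *Pax5*R31Q/- against *Pax5*+/-, and 5 to 12 higher in *Pax5*-/- against *Pax5*R31Q/-. A genotype left with 1 library is assumed to vary like the others. The cause of these shifts was not tested. The count of 27 genes with a *Pax5*+/+ peak was 26 within 0.2 kb and 27 within 2.5 kb. Requiring a 50% overlap of both peaks left 1 of the 27 without a shared peak, as before, while the share over all tested genes went from 4.0% to 15.8%. No paired analysis was possible because the labels carry no replicate numbers; those used here only name the libraries.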
